A study of Homo sapiens with 24 samples.

Results

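HES1, HEY1, JAG1, JAG2, NOTCH1, NOTCH2, NOTCH3 and DLL1 are 8 genes of the Notch pathway, taken as a fixed list of names and followed over both cell lines, the treatments and the experiments. The list was chosen with earlier results of these data known. The arrays held probe sets with a single gene symbol for 7 of the 8 genes, out of 11940 genes in all. These 7 genes had 18 of the 22406 probe sets that were not controls, and DLL1 was not analysed here. Each gene was tested through its probe set of highest mean over all arrays, and its other probe sets are given beside it.

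The series profiled A2780 cells, an established human ovarian cancer line, on 24 Affymetrix HT-HG_U133A Early Access arrays. There were 12 arrays of cells carrying the vector pcDNA and 12 of cells expressing Rab25, a small GTPase of endosome recycling. Each line had 4 arrays of serum-starved control cells and 2 arrays each of treated cells, which made 10 groups. The treatments were EGF or IGF, both at 10 ng/ml, TGF beta at 5 ng/ml, and fetal bovine serum (FBS) at 5%. All cells had been starved of serum for 8 h before any addition, and arrays of every group came from both experiment 1 and experiment 2. The labels disagree on exposure: the protocol text has 8 h for experiment 1 and 24 h for experiment 2, and the sample source has 24 h throughout. Exposure time and experiment cannot be told apart. Each line is 1 transfected line, whether clone or pool is not stated, and a difference between the lines includes whatever else sets them apart. The design text calls the samples independent without saying that they were separate cultures, so the p-values measure the spread between these arrays, which may be technical.

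The labelled cells and the main library features were checked first. RAB25 read 4.90 to 5.60 on the log2 scale in the 12 pcDNA arrays and 8.18 to 9.08 in the 12 Rab25 arrays, with no overlap. Among epithelial and ovarian markers, KRT8, KRT18 and PAX8 were high (means of 12.73, 13.98 and 11.83 over the 22 arrays other than Rab25 FBS), and WT1 was at 7.0. EPCAM was at 5.11 in those arrays and at most 5.29, below the arrays' lower quartile of 5.48 to 5.59. In the Rab25 FBS arrays EPCAM read 8.49 in replicate 1 and 5.12 in replicate 2. Both Rab25 FBS arrays stood apart. The log2 of the summed signal of 9 breast epithelium markers was 11.17 and 9.97 in these arrays and 8.60 to 8.81 in the other 22. That of 8 adipocyte markers was 9.06 and 10.82 against 8.45 to 8.91, and that of 9 macrophage markers was 9.94 and 9.76 against 8.93 to 9.18. In replicates 1 and 2, 7 and 2 of the 9 breast epithelium markers were above all 22 other arrays. So were 2 and 2 of the 8 adipocyte markers and 8 and 7 of the 9 macrophage markers. Of 7 fibroblast and pericyte markers, 4 were above all other arrays in each of the 2 arrays. Endothelial markers were above them for 1 gene in replicate 1 and for 0 in replicate 2. The main results that use the Rab25 FBS arrays are therefore also given without them where a fit allows it. A line difference over all conditions is then taken over the conditions other than FBS in both lines.

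Notch signalling passes between touching cells. A ligand of the Delta or Jagged family on a cell binds a NOTCH receptor on its neighbour, the ligand is pulled into the sending cell by endocytosis, and the receptor is cut by an ADAM protease and then by gamma-secretase. The freed intracellular part enters the nucleus, joins the DNA-binding protein RBPJ and Mastermind co-activators, and switches on genes of the HES and HEY families. HES1 and HEY1 are basic helix-loop-helix repressors, and HES1 also binds and represses its own promoter, so its messenger RNA can rise and fall quickly. In ovarian tissue and ovarian cancer the pathway is known for its part in growth and differentiation.

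The HES1 promoter is shown because HES1 is the gene on which most of the results turn and because its own protein and RBPJ both act there. The 250 bases before the HES1 start site lie at chr3:194135898-194136147 on the plus strand of GRCh38.p14 (RefSeq), upstream of the first exon. Capitals mark the letters GTGGGAA, a core of RBPJ sites, and CACNAG, the N box bound by HES proteins, both searched on both strands.
HES1: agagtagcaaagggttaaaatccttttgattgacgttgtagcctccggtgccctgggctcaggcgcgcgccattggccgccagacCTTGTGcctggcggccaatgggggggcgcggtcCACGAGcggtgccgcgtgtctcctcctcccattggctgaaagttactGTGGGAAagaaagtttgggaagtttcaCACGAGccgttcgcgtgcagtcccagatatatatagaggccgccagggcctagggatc
The stretch held 1 RBPJ core, 85 to 79 bases before the start. It held 3 N boxes, at 165 to 160 bases (on the minus strand), 132 to 127 bases and 58 to 53 bases before the start, none overlapping the RBPJ core. Of 35116 human promoter stretches of the same length, 5.43% held the RBPJ core, 32% an N box and 2.04% both. Of the 8 genes, 6 had a promoter in the table. JAG1, JAG2, NOTCH1 and NOTCH2 held neither motif, and NOTCH3 held 1 N box. A match of letters is a description and does not show that a factor binds.

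HES1 and HEY1 messenger RNA was lower in Rab25 cells than in pcDNA cells in every treatment and in both experiments. HES1 was 3.37-fold lower and HEY1 2.3-fold lower, whereas no change passed the test for the receptors NOTCH1, NOTCH2 and NOTCH3 or the ligands JAG1 and JAG2. The 3' minus 5' log2 signal of the actin control, a sign of RNA integrity, had a median of 0.85 in pcDNA arrays (0.67 to 1.17) and 0.77 in Rab25 arrays (0.63 to 1.07), and its part in the line differences was not tested. In these bulk samples a lower share of expressing cells and less RNA per cell cannot be told apart.

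HES1 (203394_s_at) ran from 8.18 through a median of 8.77 to 9.91 on the log2 scale in the 12 pcDNA arrays. In the 12 Rab25 arrays it ran from 6.33 through 7.34 to 7.81. The highest Rab25 array thus lay below the lowest pcDNA array. The means were 8.97 ± 0.613 (SD, n = 12) and 7.18 ± 0.428 (SD, n = 12). The difference, with the experiment as a term, was -1.75 on the log2 scale (SE 0.123, 95% interval -2.01 to -1.49, limma adjusted p = 3.8e-08), and it was the seventh most negative of 11940 genes. It was negative in all 10 pairs of matched condition and experiment, from -2.24 to -0.37, and the smallest was FBS in experiment 1. Without both Rab25 FBS arrays, and so over the conditions other than FBS in both lines, it was -1.89.

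A second HES1 probe set, 203395_s_at, gave -1.32 (SE 0.106, limma adjusted p = 1.97e-07 over all 22406 probe sets). The third, 203393_at, read 4.79 to 5.16 on all 24 arrays, below every array's lower quartile of 5.48 to 5.59, and gave 0.03 (SE 0.0489). The line difference in HES1 was thus read by the 2 probe sets with signal and not by the dim one.

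HEY1 (44783_s_at) ran from 9.18 through 10.00 to 10.64 in pcDNA arrays and from 7.66 through 8.85 to 9.53 in Rab25 arrays. The lines overlapped when the experiments were pooled. Within matched conditions and experiments the Rab25 value was lower in all 10 pairs, by -1.52 to -1.0. The difference was -1.20 (SE 0.0514, limma adjusted p = 7.29e-11), the seventeenth most negative of 11940 genes, and its second probe set 218839_at gave -1.14 (SE 0.0897). Without both Rab25 FBS arrays the HEY1 difference was -1.19. The spread around this difference was smaller than for HES1, so HEY1 had the smaller change and the lower p-value.

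**Figure D1:**
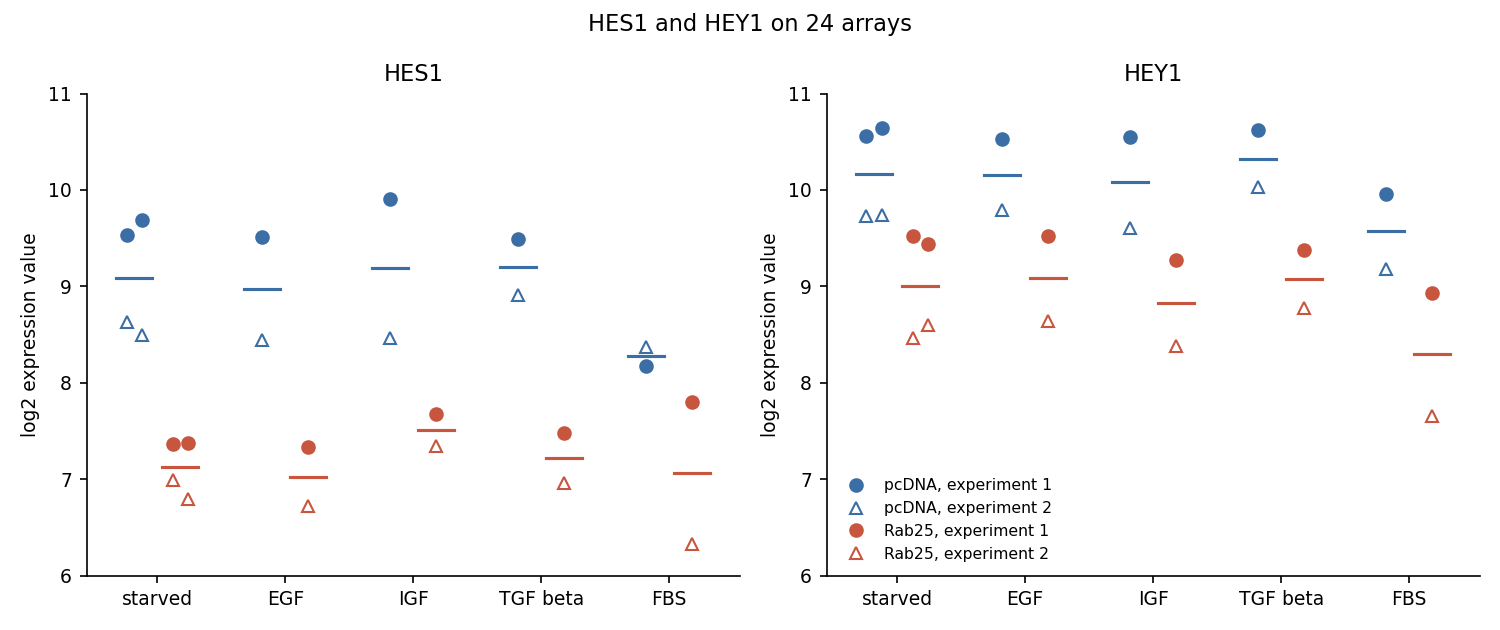
Log2 signal of HES1 (203394_s_at) and HEY1 (44783_s_at) on each of the 24 arrays, by treatment on the horizontal axis, with line and experiment marked as in the key; each point is 1 array and each bar the mean of a group. HES1 in Rab25 cells stays at or below 7.81 while pcDNA cells stay at or above 8.18, and both genes sit lower in experiment 2 than in experiment 1, HES1 in pcDNA cells given FBS excepted.

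The same comparison in starved cells alone addressed the lines without any added factor. HES1 read 9.53 and 9.69 in experiment 1 and 8.63 and 8.50 in experiment 2 in pcDNA cells, and 7.37, 7.38, 6.99 and 6.79 in Rab25 cells. All 4 Rab25 arrays were below all 4 pcDNA arrays. The difference was 3.87-fold (log2 -1.95, SE 0.205, limma adjusted p = 1.32e-05). HEY1 read 10.56, 10.64, 9.73 and 9.74 in pcDNA and 9.52, 9.44, 8.46 and 8.60 in Rab25 cells, so the Rab25 arrays of experiment 1 lay just under the pcDNA arrays of experiment 2. HEY1 was 2.24-fold lower (log2 -1.16, SE 0.0857, limma adjusted p = 3.05e-07). Without the experiment term its adjusted p was 0.0836.

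Set against all genes, the count of members called was not unusual. Of the 7 genes, 2 passed in the comparison of lines over all conditions, where 24.7% of genes passed, and 2 in starved cells, where 14.8% did. It was the size of the HES1 and HEY1 differences, not the number of members called, that lay at the edge of the array. That position is a description only, since the members were chosen with earlier results of these data known.

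**Figure D2:**
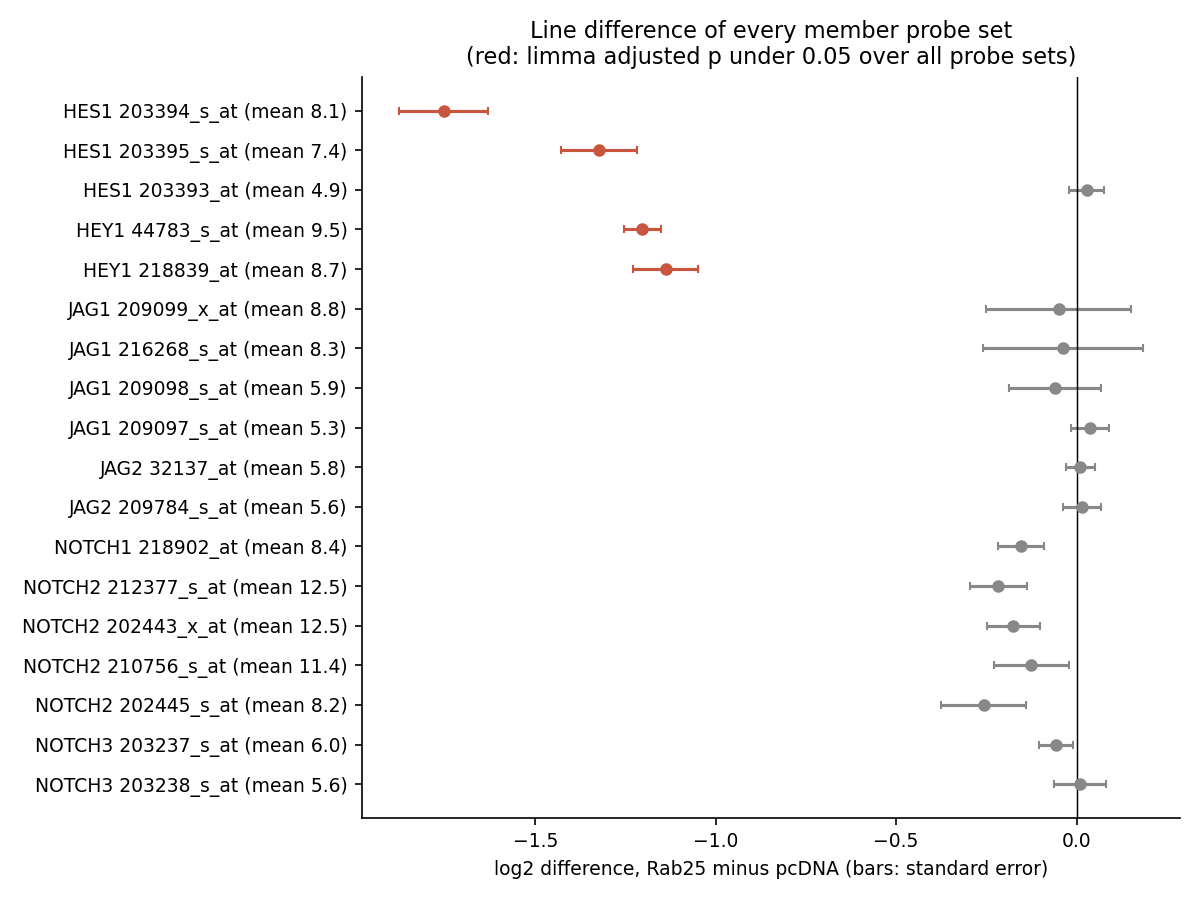
Rab25 minus pcDNA difference on the log2 scale, over all conditions, for the 18 probe sets of the 7 genes, with bars for limma's standard error; the vertical line marks no difference and red marks an adjusted p under 0.05 over all probe sets. The 2 upper HES1 probe sets and both HEY1 probe sets lie between -1.75 and -1.14, and the other probe sets lie between -0.26 and 0.04.

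The receptors differed little between the lines. NOTCH2 (212377_s_at), the brightest receptor probe set, lay 0.22 lower in Rab25 cells (log2 -0.22, SE 0.0797, limma adjusted p = 0.0573), and its other 3 probe sets gave -0.18, -0.13 and -0.26. The adjusted p for NOTCH2 was 0.0436 when the dimmest 40% of genes were left out. NOTCH1 (218902_at) gave -0.15 (SE 0.064, limma adjusted p = 0.0947). Without the Rab25 FBS arrays NOTCH2 gave -0.17 and NOTCH1 -0.10. NOTCH3 (203237_s_at), at 5.70 to 6.22 on all 24 arrays and so close to the lower quartile, gave -0.06 with a 95% interval of -0.16 to 0.04.

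The ligands also gave no call. JAG1 (209099_x_at) gave -0.05, with a 95% interval of -0.48 to 0.38, the widest of the 7 genes. JAG2 (32137_at) read 5.70 to 5.97 throughout and gave 0.01 with an interval of -0.08 to 0.10. NOTCH3 and JAG2 were dim, and a change in a dim probe set is compressed on this scale.

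The treatments were compared with starved cells to ask how the growth factors and serum moved these genes, and all 4 comparisons use the same starved arrays. TGF beta raised JAG1, and FBS lowered HEY1 in both lines. No member passed with EGF or IGF. HES1 did not pass in any treatment.

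JAG1, a ligand of the Jagged family, read 9.04 and 9.37 in starved pcDNA cells in experiment 1 and 7.96 and 7.62 in experiment 2. Starved Rab25 cells read 8.88 and 8.83 in experiment 1 and 8.01 and 7.72 in experiment 2. With TGF beta, pcDNA cells read 9.41 and 10.14 and Rab25 cells 9.18 and 10.17 in experiments 1 and 2. In experiment 2 both TGF beta arrays were far above the 4 starved arrays. In experiment 1 each was only slightly above the starved arrays of its own line, and the Rab25 TGF beta array lay below the higher starved pcDNA array. Over both lines and experiments the rise was 2.46-fold (log2 1.30, SE 0.29, 95% interval 0.69 to 1.91, limma adjusted p = 0.0306). JAG1 was 1 of 7 members called, where 1.6% of all genes were.

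The call of the JAG1 rise depended on the setting. The adjusted p was 0.116 without the experiment term and 0.0748 when the median of JAG1's probe sets was used (log2 0.95). It was above 0.05 when any 1 of 6 arrays of experiment 2 was left out, namely the 4 starved arrays and the TGF beta array of each line. The lowest estimate, 0.93, came without the Rab25 TGF beta array. The probe set 216268_s_at gave 1.27 (limma adjusted p = 0.0731 over all probe sets) and 209098_s_at 0.64 (adjusted p = 0.137). The dimmest JAG1 probe set, 209097_s_at, read 5.13 to 5.58 and gave 0.00.

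The response of JAG1 to TGF beta did not differ detectably between the lines (difference 0.03, 95% interval -1.19 to 1.26). The ends of that interval are close in size to the response itself.

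HEY1 fell with FBS. In pcDNA cells its FBS arrays read 9.96 and 9.18 in experiments 1 and 2, below the starved arrays of the same experiment. In Rab25 cells they read 8.93 and 7.66, again below the starved arrays of the same experiment. The fall was 1.51-fold in pcDNA cells (log2 -0.60, SE 0.105, limma adjusted p = 0.00384) and 1.64-fold in Rab25 cells (log2 -0.71, SE 0.105, limma adjusted p = 0.001). The 4 falls within line and experiment were -0.64 and -0.55 in pcDNA and -0.55 and -0.87 in Rab25 cells. The second HEY1 probe set, 218839_at, gave -0.66 in pcDNA cells (limma adjusted p = 0.0507 over all probe sets) and was not called there. In Rab25 cells it gave -0.90 (limma adjusted p = 0.0104 over all probe sets). HEY1 was the 1 member called in each line, where 6.75% of genes were called in pcDNA and 7.72% in Rab25 cells.

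The call in pcDNA cells was lost without the pcDNA FBS array of experiment 1 (log2 -0.55, adjusted p = 0.122). Both calls were lost without the experiment term (adjusted p of 0.657 and 0.516). The Rab25 value rests wholly on the 2 arrays with raised summed signals of breast epithelium, adipocyte and macrophage markers. The pcDNA arrays did not have those raised signals, and the part of the signals in the Rab25 value was not tested.

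HES1 with FBS was less even. In pcDNA cells it read 8.18 in experiment 1 and 8.37 in experiment 2, which was -1.43 and -0.19 from the starved mean of the same experiment. In Rab25 cells it read 7.81 and 6.33, or 0.43 and -0.57 from starved. The pcDNA estimate was -0.81 (SE 0.251, limma adjusted p = 0.0631). The adjusted p lay between 0.0325 and 0.0466 with quantile normalization, with centring, without the dimmest 40% of genes and without the Rab25 FBS arrays. It was 0.161 with the median of probe sets (log2 -0.54) and 0.538 without the experiment term. The second HES1 probe set, 203395_s_at, gave -0.54 (limma adjusted p = 0.175 over all probe sets). The Rab25 estimate was -0.07 (SE 0.251). The difference between the lines was 0.75 with a 95% interval of -0.01 to 1.50 (limma adjusted p = 0.459).

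For HES1 the EGF, IGF and TGF beta responses were -0.11, 0.24 and 0.10, each with an SE of 0.178, and for HEY1 they were 0.03, -0.13 and 0.11, each with an SE of 0.0742. The line difference in both genes was therefore several times larger than any of their responses to these 3 factors. NOTCH1 was lower with IGF (log2 -0.26, limma adjusted p = 0.159) and with TGF beta (-0.30, limma adjusted p = 0.153), and NOTCH2 with IGF (-0.26, limma adjusted p = 0.267). None of these 3 values passed.

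With EGF limma called 0 of the 7 members and 0% of all genes, with 0 members and 811 of the 11940 genes at an unadjusted p under 0.05. With IGF it called 0 members and 2.71% of genes, and NOTCH1 and NOTCH2 were the 2 members at an unadjusted p under 0.05. The count at that level over all genes was 1901. JAG1 gave 0.40 with EGF (95% interval -0.21 to 1.01) and 0.56 with IGF (-0.06 to 1.17), which does not show that JAG1 was unmoved.

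The response to each factor was also compared between the lines, to ask whether Rab25 cells answered differently. Of the 7 members, 0 passed for any of the 4 factors, and 0 had an unadjusted p under 0.05. Over all genes limma called 0% for EGF, 0% for IGF, 0% for TGF beta and 0.209% for FBS, with 415, 253, 622 and 1315 genes at an unadjusted p under 0.05. The 95% intervals of the HES1 difference ran from -0.75 to 0.76 for EGF, -0.48 to 1.03 for IGF and -0.78 to 0.72 for TGF beta. For HEY1 they ran from -0.23 to 0.40, -0.40 to 0.23 and -0.41 to 0.22. Differences of about 0.4 in HEY1 and 0.7 to 1 in HES1 thus remain within these intervals.

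HES1, HEY1, NOTCH1 and NOTCH2 differed between the experiments. HES1 was lower in experiment 2 by -0.74 (SE 0.118, limma adjusted p = 7.93e-05) and lower in 9 of 10 groups, from -1.48 to 0.19, the exception being pcDNA cells given FBS. HEY1 was lower by -0.86 (SE 0.0495, limma adjusted p = 2.09e-09) in all 10 groups, from -1.27 to -0.60. NOTCH2 was higher by 0.25 (SE 0.0767, limma adjusted p = 0.0151), but it was lower in 2 of the 10 groups, both given FBS (-0.33 in pcDNA and -0.35 in Rab25 cells). NOTCH1 was lower by -0.16 (SE 0.0616, limma adjusted p = 0.0465). Without the Rab25 FBS arrays the values were -0.67 for HES1, -0.82 for HEY1, 0.30 for NOTCH2 and -0.19 for NOTCH1. In all, 4 of 7 members passed, where 40.4% of genes did. The actin 3' minus 5' signal had a median of 0.85 in experiment 1 (0.72 to 1.17) and 0.78 in experiment 2 (0.63 to 0.93), and its part in these differences was not tested.

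The NOTCH1 call was weak. It was lost with quantile normalization (adjusted p = 0.169), with centring (0.21), and when any 1 of 18 arrays was left out, that is any pcDNA array, any starved Rab25 array or any Rab25 TGF beta array. JAG1 gave -0.35 between the experiments (adjusted p = 0.174), although in starved cells it was lower in experiment 2 by -1.42 in pcDNA and -0.99 in Rab25 cells. The starved arrays set the base of every response, so a JAG1 response in experiment 2 starts from a lower level.

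The line difference was compared between the experiments in a further fit. Of the 7 members 0 passed, where 4.66% of genes did, and NOTCH1 (0.22, limma adjusted p = 0.131) and NOTCH2 (-0.20, limma adjusted p = 0.0926) were the 2 with an unadjusted p under 0.05. HES1 gave 0.18 (SE 0.265, limma adjusted p = 0.792). Without both Rab25 FBS arrays the HES1 value was 0.56 (SE 0.124, limma adjusted p = 0.0197), a smaller gap between the lines in experiment 2, and NOTCH2 was -0.24 (limma adjusted p = 0.0392). Leaving out any 1 of the 4 FBS arrays, of either line, gave these same values, since the fit then takes the line by experiment term from the other treatments. In this comparison the HES1 call thus depends on whether the FBS arrays of both lines are in the fit. NOTCH2 was also called with those arrays kept, when the dimmest 40% of genes were left out.

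The treatment responses themselves were compared between the experiments with the moderated F over 4 terms. JAG1 (F 13.5, limma adjusted p = 0.00305), NOTCH2 (F 20, limma adjusted p = 0.00082) and NOTCH1 (F 6.22, limma adjusted p = 0.0327) passed, 3 of 7 members where 22.5% of genes passed. HES1 (F 0.188) and HEY1 (F 3.32, limma adjusted p = 0.142) did not. Without the Rab25 FBS arrays HES1 gave F 9.10 (adjusted p = 0.0153) and NOTCH1 gave F 5.14 (adjusted p = 0.0653). The NOTCH1 call was also lost with quantile normalization (adjusted p = 0.0658), with centring (0.0585), and when any 1 of 13 arrays was left out, that is 3 of the starved pcDNA arrays (1-1, 1-2 and 2-1) and any Rab25 array other than those with TGF beta. Without either pcDNA FBS array HES1 (F 6.32, adjusted p = 0.0414) and HEY1 (F 7.76, adjusted p = 0.0255) passed as well.

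For JAG1 the TGF beta response was 0.27 in experiment 1 and 2.34 in experiment 2, a difference of 2.07 (SE 0.29, limma adjusted p = 0.00638). This single term passed for 0.536% of genes. It was lost when either Rab25 TGF beta array was left out (log2 1.95, adjusted p = 0.218). The JAG1 responses to EGF and IGF were also higher in experiment 2, at 0.90 and 1.10 against -0.10 and 0.01. Those 2 terms did not pass (adjusted p of 0.297 and 0.0725), where 0.209% and 2.67% of genes passed. From experiment 1 to 2 the EGF and IGF arrays changed by -0.29 and -0.24 in pcDNA and by -0.11 and 0.02 in Rab25 cells. The starved means changed by -1.42 in pcDNA and -0.99 in Rab25 cells. With FBS JAG1 gave -0.67 in experiment 1 and 0.30 in experiment 2, a difference of 0.97 (SE 0.29, limma adjusted p = 0.0277), where 25.9% of genes passed. The lines were uneven here, at -1.17 and 0.61 in pcDNA and -0.17 and 0.00 in Rab25 cells. Without either pcDNA FBS array that difference was 0.22 (adjusted p = 0.532), without either Rab25 FBS array it was 1.71 (adjusted p = 0.000279), and without either of 2 starved pcDNA arrays (1-2 or 2-2) it was 0.86 with an adjusted p above 0.05.

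NOTCH2 moved with FBS in opposite directions. In experiment 1 it was 0.46 above starved in pcDNA and 0.16 above in Rab25 cells. In experiment 2 it was -0.26 and -0.39 from starved. The term was -0.63 (SE 0.0909, limma adjusted p = 0.000346), and leaving out any 1 of the 24 arrays did not end the call. NOTCH1 gave -0.27 in experiment 1 and 0.12 in experiment 2, a term of 0.39 (SE 0.109, limma adjusted p = 0.0202). The NOTCH1 term was not called without any 1 of the 4 FBS arrays (0.33 to 0.44, adjusted p of 0.0531 to 0.147).

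**Figure D3:**
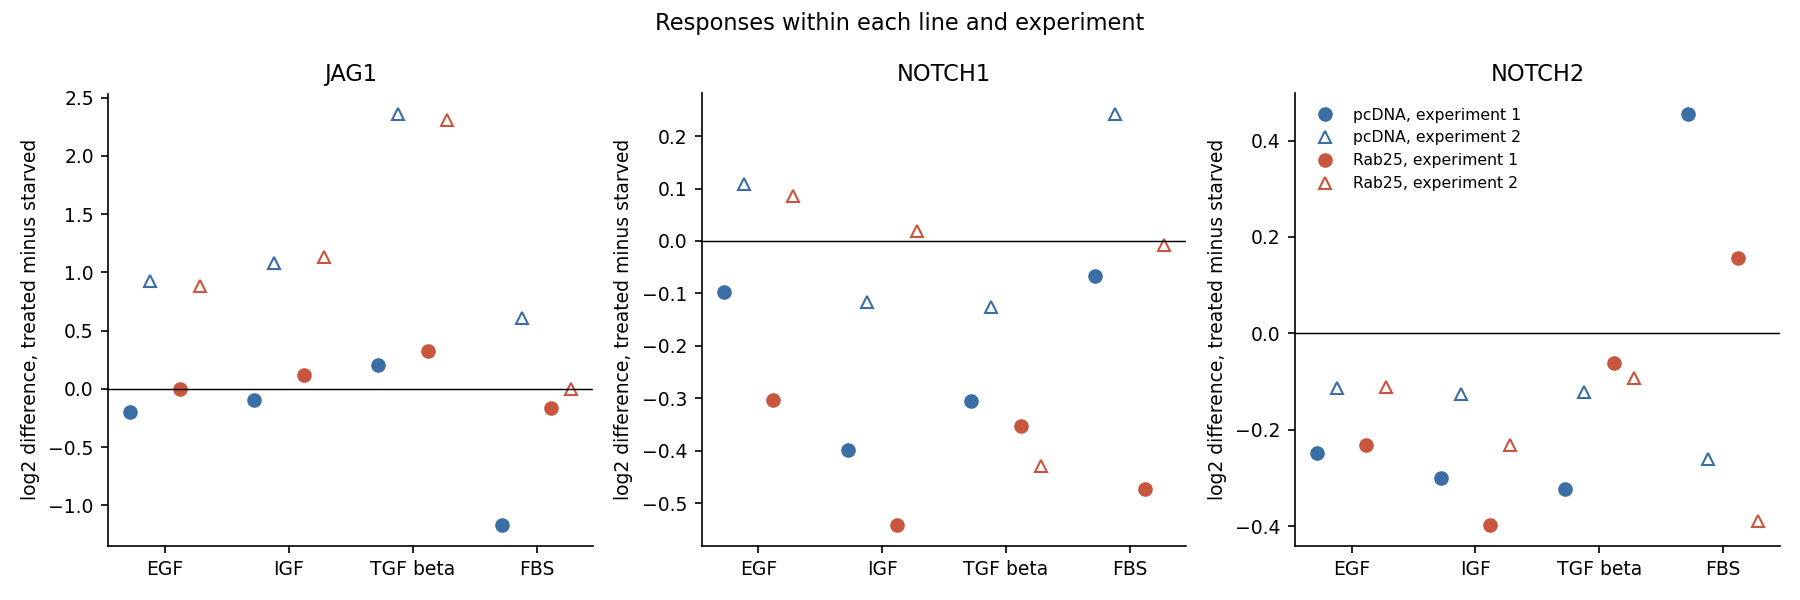
Treated minus starved difference on the log2 scale for JAG1, NOTCH1 and NOTCH2, by treatment, in each line (colour) and experiment (filled circles for 1, open triangles for 2); each point is 1 treated array minus the mean of the 2 starved arrays of its line and experiment, and the vertical scales differ between genes. JAG1 with TGF beta is at 2.36 and 2.31 in experiment 2 and at 0.21 and 0.33 in experiment 1, and NOTCH2 with FBS is above 0 in experiment 1 and below 0 in experiment 2 in both lines.

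The rest of the pathway was read from 10 lists that held 71 genes with the members, of which 54 were measured. In the comparison of lines, 5 were higher and 7 lower in Rab25 cells, 22.2% of the list against 24.7% of all genes. Without the members it was 5 higher and 5 lower of 47, with a median log2 difference of -0.02 against -0.01 over all genes. The split depended on scaling: with quantile normalization it was 9 higher and 5 lower, and with centring 8 and 5. The median of probe sets turned it the other way, to 2 higher and 11 lower, and without the experiment term it was 2 and 3. None of the 12 genes changed sign under these settings.

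Among genes that prepare and cut the receptor, POGLUT1, which adds glucose to NOTCH, was lower (log2 -0.48, SE 0.11, limma adjusted p = 0.00337). ADAM17, a protease that can cut NOTCH at the cell surface, was lower by -0.33 (limma adjusted p = 0.00446), and the fringe glycosyltransferase RFNG by -0.17 (limma adjusted p = 0.0121). In the nucleus, RBPJ was higher by 0.29 (limma adjusted p = 0.00375) and the acetyltransferase EP300 lower by -0.14 (limma adjusted p = 0.0446). The co-repressors TLE4, HDAC1 and CTBP1 were higher by 0.26, 0.14 and 0.10 (limma adjusted p of 0.00284, 0.0112 and 0.0456). They were 3 of 8 measured co-repressors, where 24.7% of all genes passed in either direction. TLE1 (-0.25) and SPEN (-0.17) lay the other way and were not called. EPN2, an epsin of the endocytic machinery, was higher by 0.20 (limma adjusted p = 0.0159).

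Of 5 measured genes known as targets of HES1 repression, CDKN1B, the cell cycle inhibitor p27, was lower in Rab25 cells (log2 -0.59, SE 0.0729, limma adjusted p = 1.25e-05), the same direction as HES1. It was the only 1 called, 20% of the 5 where 24.7% of all genes passed. CDKN1C gave -0.22 and was not called. NEUROG2, NEUROG3 and ATOH1 had means of 4.81, 5.14 and 5.64, near or below the arrays' lower quartile, where a change may not be read. RFNG and EP300 were not called with either scaling, EP300 also not without the Rab25 FBS arrays, and RBPJ, TLE4, CTBP1 and EPN2 were not called with the median of probe sets. Without the experiment term RFNG, ADAM17, EPN2, EP300, CTBP1, HDAC1 and CDKN1B were not called. HES1 and HEY1 differed by more than any other called gene of the lists, and 5 of 9 HES and HEY genes were measured.

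**Figure D4:**
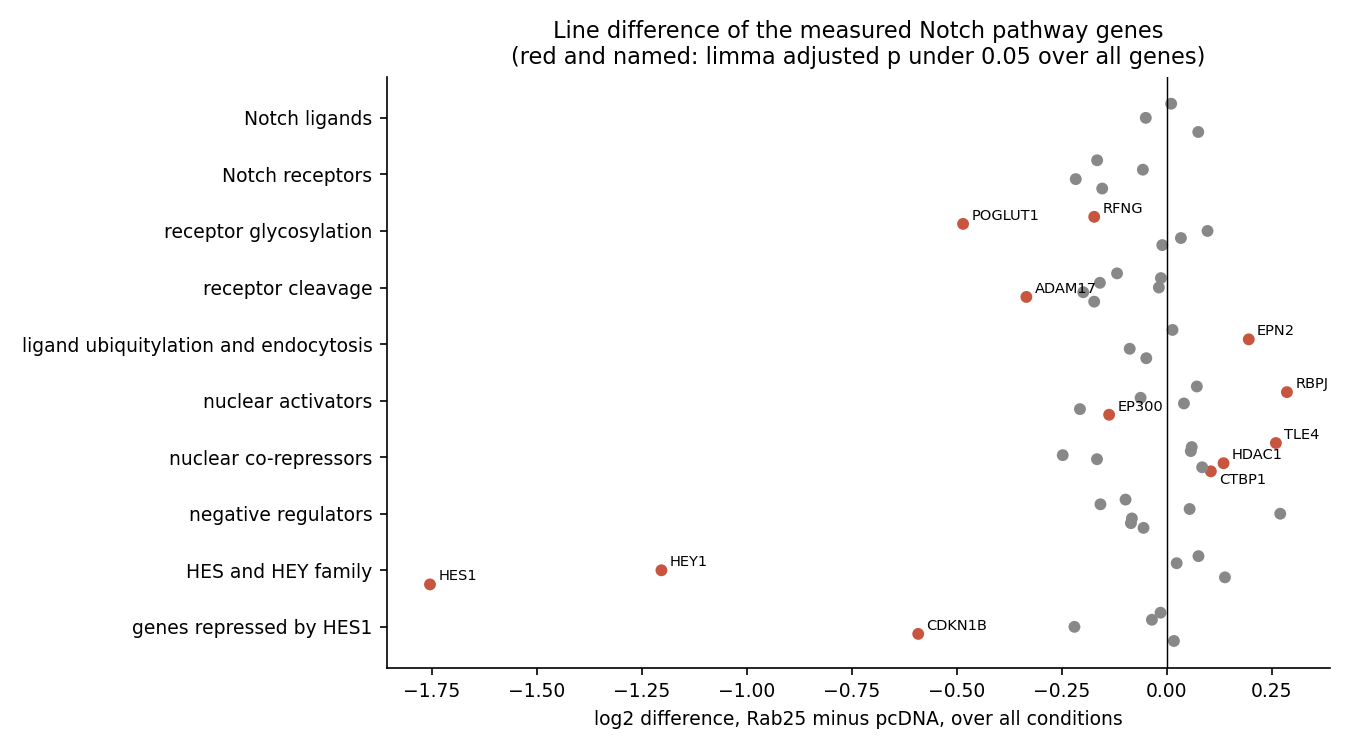
Rab25 minus pcDNA difference on the log2 scale over all conditions for the 54 measured genes of the Notch lists, grouped by role; red points passed limma's adjusted threshold of 0.05 and are named, and grey points did not. HES1 and HEY1 are at -1.75 and -1.20, and the other called genes lie between -0.59 and 0.29.

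In starved cells 2 genes of the lists were higher and 3 lower, 9.26% of those measured against 14.8% of all genes. With quantile normalization it was 7 higher and 3 lower. Beside HES1 and HEY1, CDKN1B was lower (-0.58), and HDAC1 (0.21) and DTX4 (0.62), a Deltex-type ubiquitin ligase, were higher. None of these 3 was called without the experiment term, and HDAC1 not with centring. With IGF TLE4 (-0.34, limma adjusted p = 0.0376) and the cell cycle inhibitor CDKN1C (-0.69, limma adjusted p = 0.0314) fell, and with TGF beta NUMB, an inhibitor of NOTCH, fell by 0.27 (limma adjusted p = 0.0379). None of these 3 treatment calls was kept with the median of probe sets or without the experiment term, and TLE4 and NUMB were not called with centring. With EGF 0 of 54 passed.

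FBS lowered 5 genes of the lists in pcDNA cells (9.26%, where 6.75% of all genes passed) and 8 in Rab25 cells, and raised 0 in either. Without the experiment term 0 of these calls were kept. With quantile normalization, without the dimmest 40% of genes and without the Rab25 FBS arrays 1 list gene was higher in pcDNA cells. CDKN1B fell by 0.84 and 0.90, EP300 by 0.52 and 0.51, NUMB by 0.32 and 0.37 and RFNG by 0.33 and 0.43 in pcDNA and Rab25 cells. ADAM17 (-0.58), the gamma-secretase subunit APH1B (-0.46) and the endocytic GTPase DNM2 (-0.23) passed in Rab25 cells and not in pcDNA cells. In the test of FBS responses between lines none of these 3 passed. With centring, RFNG and NUMB were not called in pcDNA cells, nor ADAM17, DNM2 and NUMB in Rab25 cells. Quantile normalization lost the calls of RFNG in pcDNA cells and DNM2 in Rab25 cells. The median of probe sets lost RFNG in pcDNA cells and ADAM17 and DNM2 in Rab25 cells. The list count was 14.8% in Rab25 cells, where 7.72% of genes passed, on arrays that carry the marker signals given above, whose part was not tested.

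Between experiments 8 list genes were higher and 17 lower in experiment 2, 46.3% of those measured against 40.4% of all genes. With centring the count was 14 higher and 14 lower. On the list drawn up as negative regulators of the pathway, 5 of 7 measured genes were lower, where 2432 of all 11940 genes were. They were DTX4 (-0.42), NUMB (-0.38), ITCH (-0.36), DTX2 (-0.21) and FBXW7 (-0.14), the last not called with centring. The list name is a grouping, and the direction in which each gene acts in these cells was not tested. CDKN1B (-0.85), ADAM17 (-0.67) and CDKN1C (-0.58) stood beside HEY1 and HES1 as the 5 most negative of the called list genes.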

How the data were processed

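The values, as the authors deposited them, are log2 signals of probe sets; the submitters' processing notes name MAS5 and RMA without role, version or order, so background correction and scaling are not given in the sources used here. Of 22930 probe sets, 524 controls were left out. Of the rest, 19415 had a single gene symbol, 125 several and 2866 none, and only the first kind was named. The values were used without further scaling in limma 3.58.1 (R 4.3.3, lmFit and eBayes) with 10 groups and the experiment as a term (13 residual and 3.51 prior degrees of freedom). A further fit added treatment by experiment and line by experiment terms (8 residual degrees of freedom). The labels number arrays by experiment, which pairs them: across genes, the shift between experiments correlated between groups with a median r of 0.66 (0.09 to 0.86 over 45 pairs of groups). Benjamini-Hochberg adjustment ran over all 11940 genes, with a threshold of 0.05. Errors are limma's SE unless SD is written. Array medians ran from 6.92 to 7.23, and precision is limited by the number of arrays. No 2 arrays were identical. The fit was tested on simulated data in which each gene had the same experiment shift in all groups. That does not test it where treatment responses differ between the experiments.

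Members and lists were chosen with earlier results of these data known. Beside the members, genes of the lists that passed between lines or in a treatment response are named, with those most like HES1; list genes named for starved cells and for the experiments were chosen after their values were seen. Alternatives were no experiment term, quantile normalization, centring, leaving out the dimmest 40% of genes, the median of probe sets, and leaving out arrays.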

Additional observations from a re-analysis of the deposited data

Results flagged for a closer look

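The response of 3 members differed between the experiments by a test of the difference itself. Over all genes 22.5% passed the treatment by experiment test, 0.536% the TGF beta term and 25.9% the FBS term. For JAG1 the TGF beta response was larger in experiment 2 by 2.07 on the log2 scale. The JAG1 FBS response went from -0.67 in experiment 1 to 0.30 in experiment 2, a difference of 0.97. For NOTCH1 the FBS response was higher in experiment 2 by 0.39, and for NOTCH2 it was lower by -0.63. The first 3 lose their call when particular single arrays are left out, as given with each value above, and the NOTCH2 difference does not. Exposure time and experiment cannot be told apart here.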

How the results depend on the processing

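No member called in any comparison changed sign under any alternative. The HES1 line difference stayed called in all of them, from -1.89 to -1.33 and from -1.86 to -1.65 with each array left out in turn. Without the replicate block (the experiment term, which pairs the arrays) called genes numbered 1665 between lines, 730 between starved lines (1 member), 10 with IGF, 55 with TGF beta (0 members), 61 with FBS in pcDNA (0 members) and 155 with FBS in Rab25 cells (0 members). It could not be dropped where the experiment itself was tested. Quantile normalization gave 2 genes with EGF, 40 for the FBS difference between lines and 2 members with FBS in pcDNA cells; centring gave 2 genes with EGF and 2 such members. Without the dimmest 40% of genes it was 3 genes for the FBS difference, 2 members with FBS in pcDNA cells and 1 for line by experiment. The median of probe sets gave 0 members with TGF beta. Without both Rab25 FBS arrays, chosen as an alternative with earlier results known, 515 genes were called with IGF, 1243 with FBS in pcDNA cells (2 members) and 911 for line by experiment (2 members); the FBS values of Rab25 cells then have no estimate.

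Leaving out 1 array at a time gave 0 to 4 genes with EGF, 52 (without Rab25 IGF 1) to 515 (without a Rab25 FBS array) with IGF, 55 (without pcDNA TGF beta 2) to 238 with TGF beta, 56 (without pcDNA FBS 1) to 2082 (without pcDNA FBS 2) with FBS in pcDNA cells and 578 to 1694 (without Rab25 FBS 2) with FBS in Rab25 cells. Differences between lines gave 0 to 1 for EGF, 0 to 1 for IGF, 0 to 17 for TGF beta (without Rab25 TGF beta 2) and 16 to 202 (without Rab25 FBS 1) for FBS, and line by experiment gave 295 to 911 (without any 1 of the 4 FBS arrays). Members called were 0 to 1 with IGF, 0 to 1 with TGF beta, 0 to 2 with FBS in pcDNA cells, 2 to 5 for treatment by experiment and 0 to 2 for line by experiment. JAG2, NOTCH3 and the dimmest HES1 and JAG1 probe sets lie near the arrays' lower quartile, where a change may not be read. The treatment by experiment terms of single members under the alternatives were chosen after the data were seen.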

Other observations

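Over the 24 arrays the genes whose log2 signal followed HES1 most closely were DENND2D (Pearson r = 0.941), IL13RA2 (0.941), ST6GAL1 (0.938), EPS8 (0.936) and ABCA1 (0.93), and HEY1 came seventh with 0.917. ALG8 (-0.94), PRDX2 (-0.932) and DLAT (-0.93) were the most opposite. These are descriptions: all arrays come from the same 2 lines and 2 experiments, so genes that differ between lines and between experiments in the way HES1 does reach high values.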
